A study of Mus musculus with 2 samples.

Results

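Kinesins are motor proteins that hydrolyse ATP to walk along microtubules or, in some families, to take microtubule ends apart. In dividing cells they build and position the mitotic spindle and drive the last step of cell separation. In neurons they carry vesicles, mitochondria and other cargo along axons and dendrites, and in ciliated cells they act in the cilium and at the centriole that bears it. The members described here were all protein-coding genes of the mm10 gene tables whose symbol is Kif followed by a number, with or without a letter, which gave 38 of 21474 protein-coding genes. By textbook role, 11 act in mitosis and cytokinesis, 16 in transport (Kif2a, which trims axon branches, was placed there), 6 at the cilium or centriole, and 5 were left in a remaining group.

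The tissue was central nervous system dissected at embryonic day 11.5 from C57BL/6J littermates of both sexes. The series holds 1 group with 2 biological replicates, each sequenced as a strand-specific paired-end library of polyadenylated RNA. The labels give both replicates the same donor entry, so the spread between them may be partly technical. With no second condition and 1 library on each side, no test was run, and each ratio below compares 2 libraries rather than conditions.

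The estimated counts in Ensembl genes summed to 120461126 in replicate 1 and 108007021 in replicate 2. Markers of dividing cells, neural progenitors and young neurons, 6 of each, were all at 1 TPM or more in both libraries. TPM is the level of a gene per transcript length, set to the same total in each library. Of the glial markers, Mog, which defines oligodendrocytes, had 0 counts in both libraries, and the astrocyte marker Gfap was at 0.49 TPM in replicate 1 and 0.33 TPM in replicate 2. The libraries stood farthest apart in 2 marker lists. The posterior Hox genes Hoxa9, Hoxb9, Hoxc10 and Hoxd10, which the spinal cord also expresses, summed to 1.45 TPM in replicate 1 and 84.6 TPM in replicate 2, and the 3 muscle regulators Myod1, Myog and Myf5 summed to 0.65 TPM in replicate 1 and 56.5 TPM in replicate 2. In bulk tissue, fewer cells of a type and less RNA per cell cannot be told apart.

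The kinesins share a motor domain with a nucleotide-binding loop. A search of the longest coding sequence of each gene in GENCODE M21 found the codons of this loop in all 38 members. The loop is shown because the search found it in every member, and no other stretch was compared. The 24 loop bases stand in capitals with 12 flanking bases on each side, 5′ to 3′ on the coding strand, for 3 mitotic motors, the transport motor Kif5c, and Kif26a:
Kif11: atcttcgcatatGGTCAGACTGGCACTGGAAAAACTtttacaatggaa
Kif22: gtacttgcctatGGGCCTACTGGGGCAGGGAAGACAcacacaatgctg
Kif2c: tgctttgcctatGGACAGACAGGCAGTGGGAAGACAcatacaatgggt
Kif5c: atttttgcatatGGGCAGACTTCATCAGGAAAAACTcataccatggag
Kif26a: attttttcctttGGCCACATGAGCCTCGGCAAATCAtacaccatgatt

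Measured against Kif5c, the other 37 members had between 11 and 20 of the 24 loop bases in common, with a median of 15. Kif4 had the most, at 20, and Kif5a had 19. Kif18b and Kif26a had the fewest, at 11 each. Part of each match is set by the search, which required glycine, glycine and lysine at fixed places and serine or threonine at the end. In 31 members the loop began between codons 84 and 159, near the start of the protein, as in Kif5c at codon 86 and Kif11 at codon 104. In the other 7 it began between codons 303 and 546. Those 7 were the kinesin-13 motors Kif2a, Kif2b and Kif2c, which remove subunits from microtubule ends, together with Kif24, Kif14, Kif26a and Kif26b. Kif26b had both the longest coding sequence, 2112 codons, and the latest loop, at codon 546. Kif12 had the shortest coding sequence, at 643 codons.

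**Figure D1:**
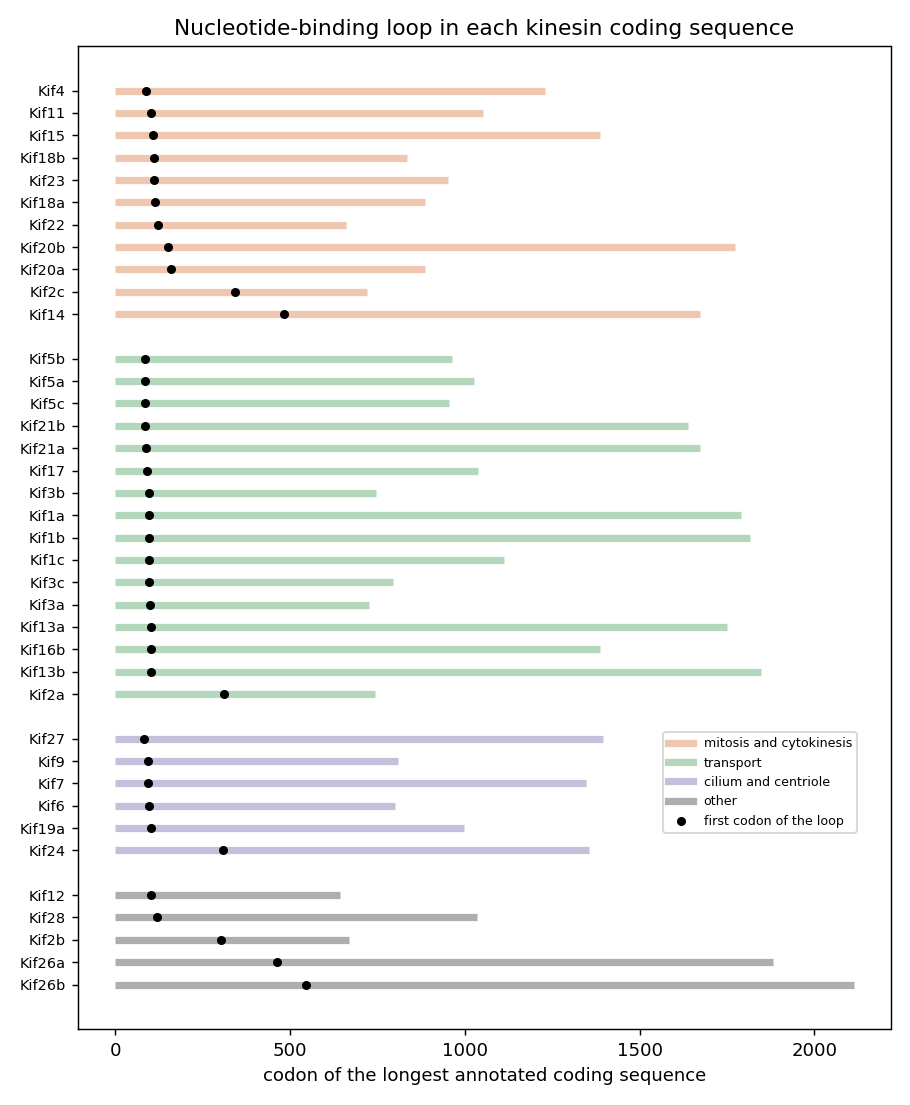
Each bar is the longest annotated coding sequence of a kinesin gene, in codons from the start codon, coloured by role, and the black point marks the first codon of the nucleotide-binding loop. The loop begins between codons 84 and 159 in 31 members and between codons 303 and 546 in Kif2a, Kif2b, Kif2c, Kif14, Kif24, Kif26a and Kif26b.

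Most kinesins were present at day 11.5. Of the 38 members, 32 were at 1 TPM or more in both libraries, against 60.8% of all protein-coding genes. The median over members of the mean TPM was 19.9, and the median over all protein-coding genes was 5.29. The members together summed to 1212 TPM in replicate 1 and 945 TPM in replicate 2. Transport motors made up 54.5% of that sum in replicate 1 and 49.4% in replicate 2. Mitotic motors made up 41.5% in replicate 1 and 45.8% in replicate 2. Cilium and centriole motors made up 2.41% in replicate 1 and 2.39% in replicate 2. These shares include short and non-coding transcripts, which weigh most on a few transport motors. In Kif5c, coding transcripts of at least 1000 bases made up 47.1% of the TPM in replicate 1 and 68.6% in replicate 2. The shares were not recomputed over such transcripts, so the order of the roles is given by gene TPM only. Across the 38 members the order of levels was close between the libraries, with a Spearman rho of 0.984, given as a description over genes that share the libraries.

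**Figure D2:**
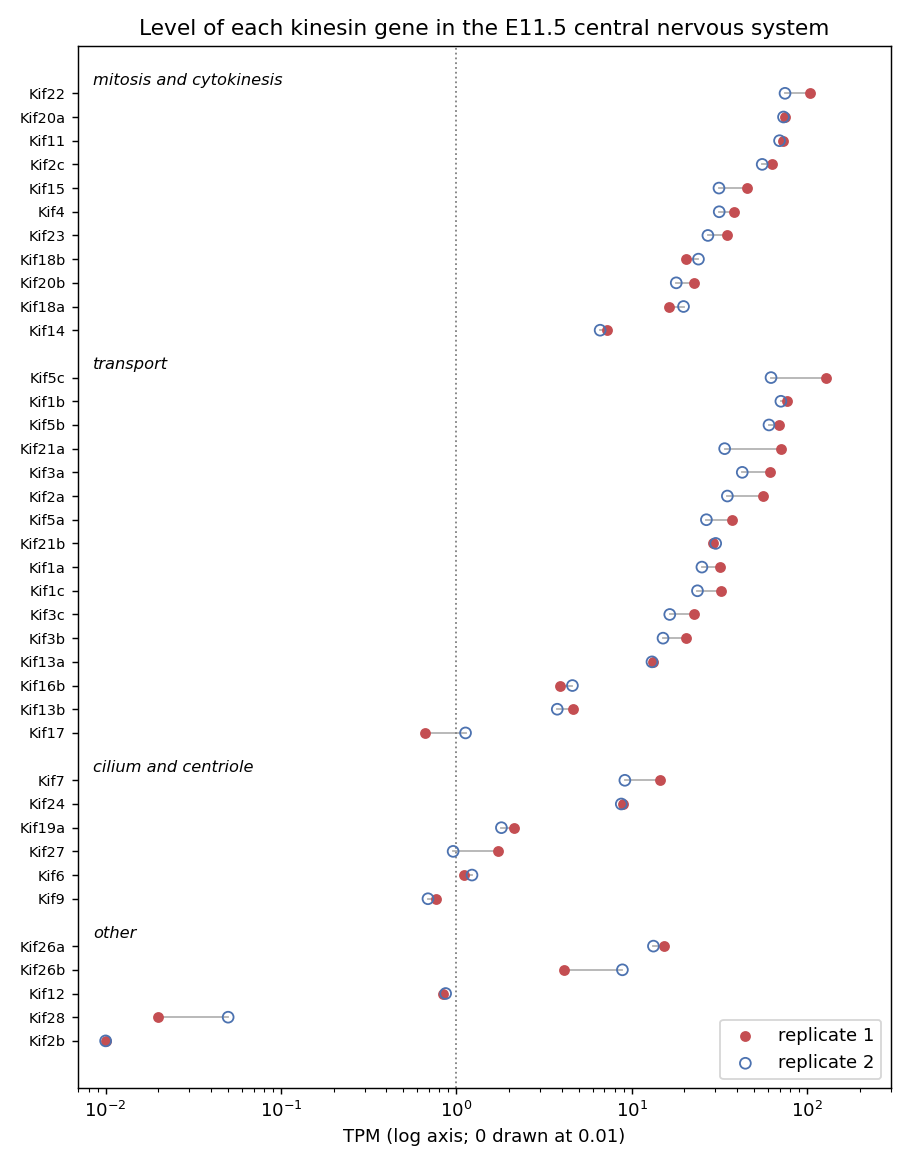
Each row is a kinesin gene, grouped by role and ordered by mean level, and the points give its TPM on a log axis in replicate 1 (filled) and replicate 2 (open), with the dotted line at 1 TPM. The mitotic motors and all transport motors but Kif17 lie between 3.77 and 128 TPM, while 4 of the 6 cilium and centriole motors lie near 1 TPM.

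All 11 mitotic motors were above 5 TPM in both libraries, and the median over the list of the mean TPM was 35.1 ± 4.99 (SD of the library medians, n = 2). Kif22, a chromokinesin that pushes chromosome arms toward the spindle equator, was the highest, at 105 TPM in replicate 1 and 75.1 TPM in replicate 2. Kif22 lies on chromosome 7 (127027729 to 127042471, minus strand, mm10). Kif20a, which brings the chromosomal passenger complex to the central spindle, had 75.2 TPM in replicate 1 and 73.6 TPM in replicate 2. Kif11, the tetrameric motor that slides spindle poles apart, had 72.9 TPM in replicate 1 and 69.9 TPM in replicate 2. Kif20a and Kif11 were close, with means of 74.4 ± 1.14 TPM and 71.4 ± 2.13 TPM (SD, n = 2 each), Kif20a being the higher in each library.

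Kif2c, the depolymerase that corrects attachments at centromeres, had 63.4 TPM in replicate 1 and 55.6 TPM in replicate 2. Kif15, which can share the work of Kif11 in holding the spindle apart, had 45.8 TPM in replicate 1 and 31.5 TPM in replicate 2. Kif4, a chromokinesin that works with Prc1 at the central spindle, had 38.6 TPM in replicate 1 and 31.6 TPM in replicate 2. These 3 motors were lower in replicate 2, and the ranges of Kif15 and Kif4 overlapped. Kif23, a subunit of centralspindlin, had 35.1 TPM in replicate 1 and 27.3 TPM in replicate 2.

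The remaining 4 mitotic motors were the lowest of the list. Kif18a, which damps chromosome movement at the spindle equator, had 16.3 TPM in replicate 1 and 19.8 TPM in replicate 2. Kif18b, which acts on astral microtubule ends with Kif2c, had 20.4 TPM in replicate 1 and 24.1 TPM in replicate 2. Both Kif18 genes were higher in replicate 2, unlike the other 9 mitotic motors. Kif20b, whose loss in mice gives a small cortex, had 22.6 TPM in replicate 1 and 18.0 TPM in replicate 2. Kif14, a cytokinesis motor, was last, with 7.27 TPM in replicate 1 and 6.62 TPM in replicate 2.

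Pseudogenes of Kif4 and Kif22 (Kif4-ps and Kif22-ps) had 0 counts in both libraries. How reads from near-identical copies were divided is not given in the sources used here, so some reads of those copies could stand under Kif4 and Kif22.

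Several members overlap a gene on the opposite strand, and the sources used here do not say whether counting used strand. The largest such overlap was Cdc23 with Kif20a, at 89.7 TPM in replicate 1 and 121 TPM in replicate 2. Pdzd11, which overlaps Kif4, had 65.3 TPM in replicate 1 and 66.7 TPM in replicate 2. An antisense gene, 1110002L01Rik, overlaps the transport motor Kif3c, with 18.1 TPM in replicate 1 and 22.3 TPM in replicate 2. Ticrr, Dimt1 and Mettl15 overlap Kif7, Kif2a and Kif18a at levels between 6.90 and 13.6 TPM. Reads of such pairs cannot be told apart where strand was not used.

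The transport motors spanned a wider range, and their median mean TPM was 29.2 ± 4.38 (SD of the library medians, n = 2). The kinesin-1 heavy chains Kif5a, Kif5b and Kif5c, which carry cargo with the light chains Klc1 to Klc4, summed to 235 TPM in replicate 1 and 150.0 TPM in replicate 2. Kif5c, which is enriched in neurons, had 128 TPM in replicate 1 and 62.5 TPM in replicate 2. Kif5b, the heavy chain found in most cell types, had 69.4 TPM in replicate 1 and 60.8 TPM in replicate 2. Kif5a, the heavy chain restricted to neurons, had 37.5 TPM in replicate 1 and 26.7 TPM in replicate 2. The gene-level values of Kif5c in the 2 libraries were the farthest apart of any member in absolute TPM, though not as a ratio. Their mean was 95.1 ± 46.2 TPM (SD, n = 2). Kif5c stood above Kif5b in each library, but the gap between their means was within that spread.

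The kinesin-3 motors carry vesicle precursors along the axon. Kif1b, which also moves mitochondria, had 77.5 TPM in replicate 1 and 71.1 TPM in replicate 2. Kif1a, a carrier of synaptic vesicle precursors, had 32.0 TPM in replicate 1 and 25.2 TPM in replicate 2. Kif1c had 32.4 TPM in replicate 1 and 23.8 TPM in replicate 2. Kif1a and Kif1c therefore stood side by side, and Kif1b stood above both in each library. The endosomal motors of the same family were lower: Kif13a had 13.2 TPM in replicate 1 and 13.1 TPM in replicate 2, Kif13b had 4.66 TPM in replicate 1 and 3.77 TPM in replicate 2, and Kif16b had 3.91 TPM in replicate 1 and 4.60 TPM in replicate 2.

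Kinesin-2 works as a trimer of Kif3a, a partner motor (Kif3b or Kif3c) and Kifap3, and serves both axonal transport and building of the cilium. Kif3a had 61.4 TPM in replicate 1 and 42.8 TPM in replicate 2. Kif3b had 20.4 TPM in replicate 1 and 15.1 TPM in replicate 2, and Kif3c had 22.6 TPM in replicate 1 and 16.5 TPM in replicate 2. Kif3a was thus 1.43 times the sum of its partner motors in replicate 1 and 1.35 times that sum in replicate 2. Against Kifap3 it was 2.24 times in replicate 1 and 1.28 times in replicate 2.

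Kif21a and Kif21b are kinesin-4 motors that slow microtubule growth, and human KIF21A mutations disturb eye-muscle innervation. Kif21a had 71.4 TPM in replicate 1 and 34.0 TPM in replicate 2, whereas Kif21b had 29.3 TPM in replicate 1 and 30.2 TPM in replicate 2. Kif2a, which shortens microtubules and limits axon branching, had 55.9 TPM in replicate 1 and 35.2 TPM in replicate 2. Kif17, a motor of dendrites, was the only transport motor under 1 TPM in either library, with 0.66 TPM in replicate 1 and 1.13 TPM in replicate 2. Kif17 shares its strand and part of its span with Sh2d5, so the 159 counts in replicate 1 and 196 counts in replicate 2 may include reads of that gene.

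Among the cilium and centriole motors, Kif7, which acts in Hedgehog signalling at the ciliary tip, was the highest, with 14.6 TPM in replicate 1 and 9.16 TPM in replicate 2. Kif24, a kinesin-13 that restrains cilium assembly at the mother centriole, had 8.95 TPM in replicate 1 and 8.74 TPM in replicate 2. Those of motile cilia and the Kif7 paralogue were much lower. Kif19a had 2.14 TPM in replicate 1 and 1.81 TPM in replicate 2. Kif27 had 1.74 TPM in replicate 1 and 0.96 TPM in replicate 2. Kif6 had 1.11 TPM in replicate 1 and 1.23 TPM in replicate 2, and Kif9 had 0.77 TPM in replicate 1 and 0.69 TPM in replicate 2. The last 3 were within about 1 TPM of each other, and their order was not the same in both libraries.

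In the remaining group, Kif26a, which is known to lack ATPase activity and to restrain growth factor signalling in enteric neurons, had 15.3 TPM in replicate 1 and 13.3 TPM in replicate 2. Its paralogue Kif26b, known from kidney and limb mesenchyme, had 4.12 TPM in replicate 1 and 8.87 TPM in replicate 2. Kif12 had 0.84 TPM in replicate 1 and 0.87 TPM in replicate 2. Kif28, whose span overlaps that of Ahctf1 on the same strand, had 6 counts in replicate 1 and 12 counts in replicate 2. Kif2b had 0 counts in both libraries, which allows up to 3 counts in each.

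Partner genes of the motors were present as well. All 12 mitotic partners were at 1 TPM or more in both libraries, with a median mean level of 85.1 TPM, against 35.1 TPM for the mitotic motors. The highest were Birc5 (203 TPM in replicate 1, 135 TPM in replicate 2), Racgap1 (179 TPM in replicate 1, 132 TPM in replicate 2) and Aurkb (153 TPM in replicate 1, 112 TPM in replicate 2). Birc5 and Aurkb belong to the chromosomal passenger complex. The lowest was Cenpe, itself a kinesin of the kinetochore under another name, with 32.8 TPM in replicate 1 and 22.0 TPM in replicate 2. Kif23 stood at 0.196 of the level of Racgap1, its centralspindlin partner, in replicate 1 and at 0.207 in replicate 2. Kif4 stood at 0.324 of the level of Prc1 in replicate 1 and at 0.306 in replicate 2.

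All 14 transport partners were also at 1 TPM or more in both libraries, with a median mean level of 28.2 TPM, against 29.2 TPM for the transport motors. Klc1 was the highest, with 452 TPM in replicate 1 and 239 TPM in replicate 2. The adaptor Fez1 had 226 TPM in replicate 1 and 114 TPM in replicate 2, and the scaffold Mapk8ip3 had 148 TPM in replicate 1 and 132 TPM in replicate 2. Klc3 was the lowest, with 1.55 TPM in replicate 1 and 1.64 TPM in replicate 2. The kinesin-1 heavy chains summed to 0.428 of the light chains in replicate 1 and to 0.480 in replicate 2. Over coding transcripts of at least 1000 bases, the heavy chains summed to 136 TPM in replicate 1 and 111 TPM in replicate 2, which was 0.330 of the light chains in replicate 1 and 0.430 in replicate 2.

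The libraries were then compared by estimated counts scaled with TMM, a method that sets the bulk of genes to a ratio near 1. A ratio was called where the log2 ratio, replicate 1 over replicate 2, was at least 1 or at most -1 and the counts summed to at least 100. Of the 38 members, 36 passed that minimum. The log2 ratio was above 0 for 30 of the 36, against 51.0% of the 14757 protein-coding genes tested, and the median was 0.39, against 0.01 for those genes. It was 0.40 for the 11 mitotic motors, with 9 above 0, and 0.49 for the 16 transport motors, with 14 above 0. Both medians stayed above 0 under the other scalings tried. Partner genes ran the same way, with medians of 0.50 for the mitotic partners (11 of 12 above 0) and 0.41 for the transport partners (13 of 14 above 0).

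Marker genes moved between the libraries too. The median log2 ratio was 0.86 for the neural progenitor markers (6 of 6 above 0), 0.32 for the young neuron markers (4 of 6 above 0) and 0.02 for the markers of dividing cells (3 of 6 above 0). It was -6.40 for the posterior Hox genes and -6.20 for the muscle regulators, all of them higher in replicate 2. For erythroid markers it was -0.41 (1 of 4 above 0), and for endothelial markers -0.39 (1 of 3 above 0). The part of these differences in the kinesin ratios was not tested.

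At least 2-fold higher in replicate 1 were 2 of the 36 members, against 3.96% of the protein-coding genes tested. Kif21a (chromosome 15, 90933276 to 91049948, minus strand) had 36640 counts in replicate 1 and 14943 counts in replicate 2. Kif21a was called under every scaling tried, with a ratio of 2.40-fold (95% exact binomial interval 2.35 to 2.45, which covers counting error only). Kif27 (chromosome 13, 58287502 to 58359122, minus strand) had 639 counts in replicate 1 and 301 counts in replicate 2, a ratio of 2.08-fold with an interval of 1.81 to 2.39. The interval of Kif21a lies wholly above 2-fold, and that of Kif27 does not. These intervals leave out the choice of scaling. The log2 ratio of Kif21a was 1.26 with TMM, 1.14 with total counts and 1.05 on the log2(TPM + 1) scale. The antisense gene Gm26555 overlaps Kif27, with 129 counts in replicate 1 and 75 counts in replicate 2.

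None of the members was at least 2-fold higher in replicate 2, against 5.58% of the protein-coding genes tested. Just outside the limit was Kif26b (chromosome 1, 178529125 to 178939200, plus strand), with 4605 counts in replicate 1 and 8550 counts in replicate 2. Its log2 ratio was -0.92, which is 1.90-fold higher in replicate 2. The mesenchyme markers Prrx1 and Twist1 had log2 ratios of -1.71 and -0.93, whereas Col3a1 had 0.42 and Col1a2 had 0.22. Scaled by total counts instead, Kif26b passed the limit and Kif27 did not. Just outside the limit on the other side was Kif7, with a log2 ratio of 0.86.

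**Figure D3:**
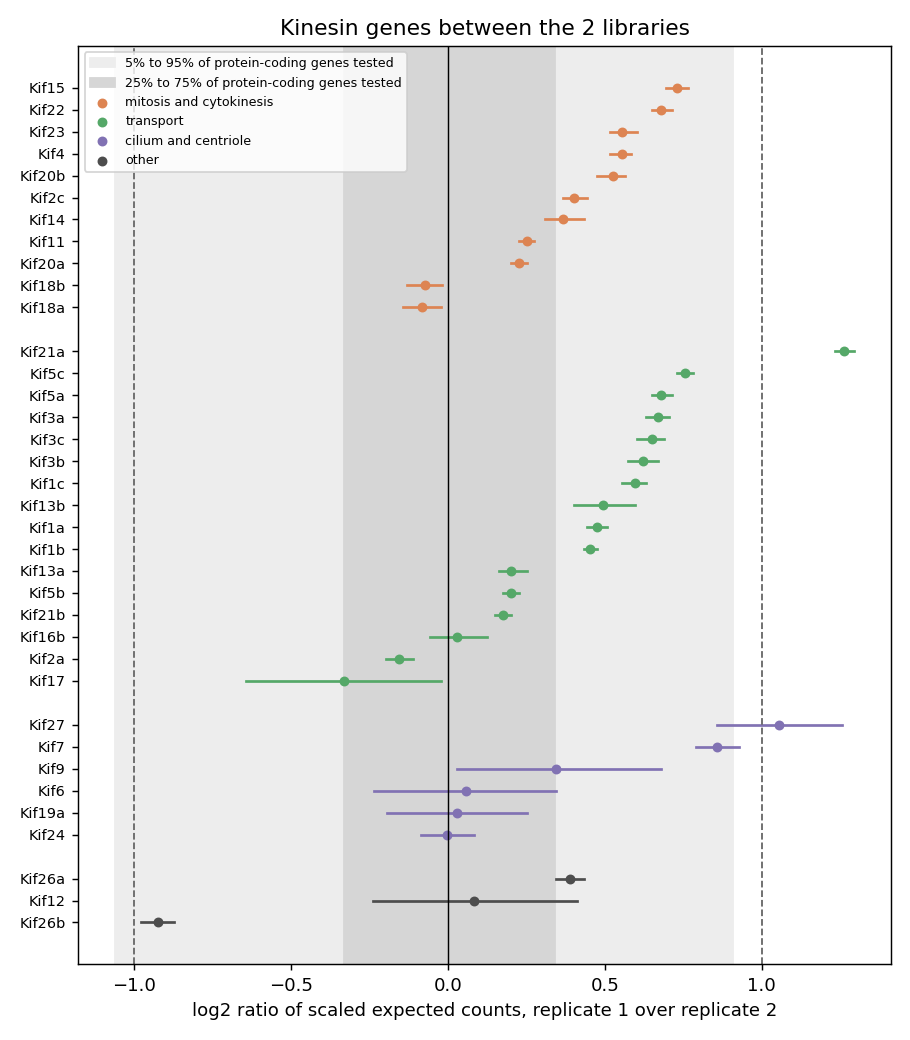
The 36 kinesin genes with at least 100 counts, as the log2 ratio of scaled estimated counts in replicate 1 over replicate 2, with 95% exact binomial intervals that cover counting error only, over bands for all protein-coding genes tested. Most points lie right of 0, Kif21a and Kif27 lie past the dashed 2-fold line, and Kif26b lies near the line on the other side.

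For Kif2a the direction depended on the scale. Its counts were 8263 in replicate 1 and 9004 in replicate 2, a log2 ratio of -0.16, yet its TPM was higher in replicate 1. The transcript tables show where the scales part. Kif2a-205, annotated as coding but only 288 bases long, had 239 counts in replicate 1 and 2 counts in replicate 2. Because TPM divides by length, it made up 44.7% of the TPM of Kif2a in replicate 1 and 0.852% in replicate 2. Over coding transcripts of at least 1000 bases, Kif2a stood at 27.4 TPM in replicate 1 and 32.1 TPM in replicate 2.

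Kif5c showed the same kind of transcript. Its full-length Kif5c-201 (6856 bases) had 60.2 TPM in replicate 1 and 42.8 TPM in replicate 2. The processed transcripts Kif5c-203 (480 bases) and Kif5c-204 (775 bases) had 28.9 TPM and 26.7 TPM in replicate 1, and 15.4 TPM and 3.88 TPM in replicate 2. Over long coding transcripts, Kif5c was 7 in the order of members rather than 1, and Kif22 was 1. Kif5b likewise had 42.8% of its TPM in replicate 1 and 28.9% in replicate 2 in a retained-intron transcript, Kif5b-205. Over long coding transcripts, Kif24 had 4.41 TPM in replicate 1 and 5.37 TPM in replicate 2. Kif6 had 0.53 TPM in replicate 1 and 0.46 TPM in replicate 2 over such transcripts. Kif6 therefore reached 1 TPM in both libraries by gene level only. The mitotic motors Kif11, Kif15, Kif20b, Kif22 and Kif23 each have a single annotated transcript in the deposited tables and are free of this split.

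**Figure D4:**
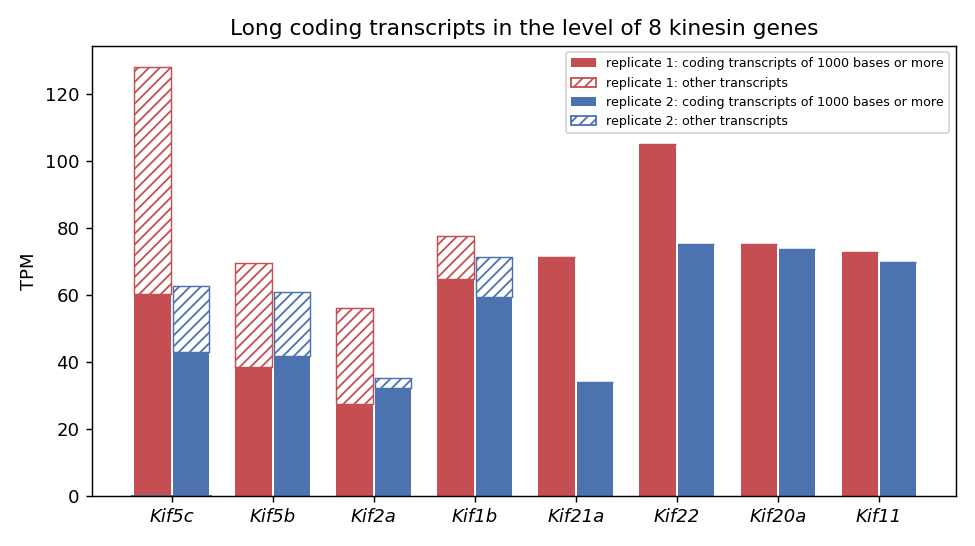
TPM of 8 kinesin genes in replicate 1 (red) and replicate 2 (blue), with solid bars for protein-coding transcripts of at least 1000 bases and hatched bars for all other transcripts. Short or non-coding transcripts make up a large part of Kif5c and Kif5b in both libraries and of Kif2a in replicate 1, and next to none of Kif21a, Kif22, Kif20a and Kif11.

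Of the members at 5 TPM or more in both libraries, 18 have several annotated transcripts, and 16 of these had the same leading transcript in both libraries, against 79.2% of protein-coding genes treated the same way. The exceptions were Kif2a and Kif21a. In Kif21a, transcript Kif21a-205 made up 52.8% of the TPM in replicate 1 and 40.3% in replicate 2, while Kif21a-204 made up 29.8% in replicate 1 and 41.5% in replicate 2. By transcript counts the leader was the same for 17 of the 18, with Kif21a the exception, against 88.3% of protein-coding genes by counts.

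Splice junction reads on the mm9 build gave a second view of the transcripts. The authors pooled both replicates in this list, and no label ties its component values to a library, so they are given as a range. Kif21a had 53221 junction reads, the most of any member, followed by Kif1b with 51135 and Kif20a with 43229. With at least 20 reads at each junction, 11 cassette exons of at most 40 bases were found, in 8 genes (Kif1a, Kif1b, Kif1c, Kif3a, Kif13a, Kif16b, Kif21a and Kif21b). The limit of 40 bases was chosen after the lengths were seen, and it leaves out exons of 42 bases in Kif23 and 43 bases in Kif15, both mitotic motors. Their sequences are shown where the exon has at most 30 bases and matched an annotated mm10 exon of the same length and place in the gene, 5′ to 3′ on the coding strand, all bases in capitals:
Kif21a, 21 bases, chr15:90964975-90964995, minus strand: ATCTAGATGGCGCCCCACCAG
Kif1b, 18 bases, chr4:149265345-149265362, minus strand: GATAACTGCACAAGCAAG
Kif1a, 24 bases, chr1:93026832-93026855, minus strand: CGTTTCCTTCGGAAATGACACTAG
Kif1a, 27 bases, chr1:93034546-93034572, minus strand: GCAGTTTCTTGATTCGGACATACCTAG
Kif3a, 9 bases, chr11:53590717-53590725, plus strand: ACCAAGCAG

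All of these printed lengths are multiples of 3, and the exons are coding in the annotation. The Kif1c exon is not printed because it matched no annotated exon. Its 22 bases are not a multiple of 3, and it was included in 4.45% of junction reads. The Kif21a exon was included in 40.5% of junction reads (38.8% and 45.1% in the component values). It is present in Kif21a-201, Kif21a-202 and Kif21a-204 and absent from Kif21a-205, and the transcripts that hold it made up 47.0% of the TPM of Kif21a in replicate 1 and 59.5% in replicate 2. The Kif1b exon was included in 46.8% of junction reads (49.5% and 41.4%), and its transcript Kif1b-203 made up 63.7% of the TPM in replicate 1 and 46.0% in replicate 2. The Kif3a exon was included in 73.9% of junction reads (72.6% and 76.7%), against 91.4% of the TPM in replicate 1 and 96.3% in replicate 2. That share rests on few reads, 23 and 113 at the junctions on either side of the exon and 24 that skip it. The sides differ, so the share is uncertain beyond the range of the component values.

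The measures parted most for Kif1a. Its 24-base exon was included in 17.0% of junction reads (14.2% and 19.4%), whereas the only annotated transcript that holds it, Kif1a-204, made up 75.6% of the TPM of Kif1a in replicate 1 and 80.9% in replicate 2. The cause was not tested. Its 27-base exon was included in 9.08% of junction reads. In Kif21b, a 39-base exon was included in 78.8% of junction reads, and in Kif23 a 42-base exon was included in 28.3%.

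**Figure D5:**
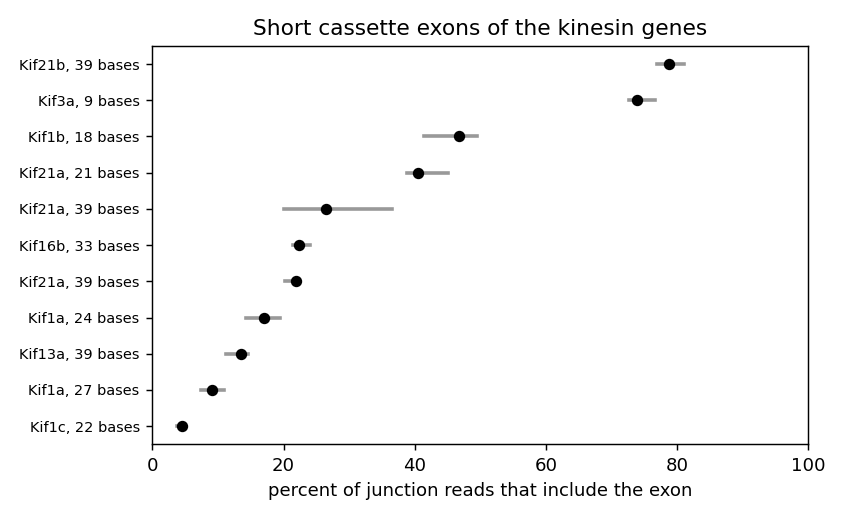
Percent of junction reads that include each cassette exon of at most 40 bases in a kinesin gene, from the pooled mm9 junction list (black points), with the grey bar spanning the component values. Inclusion runs from 4.45% for Kif1c to 78.8% for Kif21b, and the Kif21a exon of 21 bases and the Kif1b exon of 18 bases lie near the middle.

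Promoters were read from the RefSeq table (GRCm38.p6), which held 31 of the 38 members. The 250 bases before each start site were searched on both strands for TTTGAA, the core of the cell-cycle element that holds mitotic genes off until late in the cycle, and for CCAAT, the core letters of the element bound by NF-Y. Reverse complements are TTCAAA and ATTGG, and neither motif overlaps the other in its letters. TTTGAA was found in 5 of 10 mitotic motors (Kif2c, Kif11, Kif14, Kif15 and Kif22), 1 of 12 transport motors (Kif1a), 1 of 5 cilium and centriole motors (Kif27) and 1 of 4 in the remaining group (Kif26b), against 18.3% of all genes in the table. CCAAT was found in 6 of 10 mitotic motors, 3 of 12 transport motors, 3 of 5 cilium and centriole motors and 2 of 4 in the remaining group, against 37.5% of all genes.

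In Kif11, Kif15 and Kif22 the letters TTCAAA began 19, 19 and 17 bases before the RefSeq start site. The GENCODE M21 genes start elsewhere, at 37376403 for Kif11, 122951046 for Kif15 and 127042471 for Kif22. By those starts the letters lie inside the gene in Kif15 and Kif22, and farther upstream in Kif11. In Kif26b, of the remaining group, TTTGAA began 9 bases before the RefSeq start. Within 30 bases of the RefSeq start, 3 of 10 mitotic motors and 1 of 4 in the remaining group hold TTTGAA on either strand. So do 0 of 12 transport motors, 0 of 5 cilium and centriole motors and 1.72% of all genes. That window was chosen after the positions were seen. The last 100 bases before the start are printed for the 3 mitotic motors and for Kif5c, with both motifs in capitals:
Kif11, chr19:37376282-37376381, plus strand: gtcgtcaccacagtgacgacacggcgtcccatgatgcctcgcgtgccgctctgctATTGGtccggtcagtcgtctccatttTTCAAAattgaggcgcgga
Kif15, chr9:122950981-122951080, plus strand: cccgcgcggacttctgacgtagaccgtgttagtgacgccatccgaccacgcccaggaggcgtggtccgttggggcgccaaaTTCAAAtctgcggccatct
Kif22, chr7:127042421-127042520, minus strand: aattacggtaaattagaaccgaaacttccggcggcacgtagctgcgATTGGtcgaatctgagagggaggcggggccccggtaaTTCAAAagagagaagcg
Kif5c, chr2:49619186-49619285, plus strand: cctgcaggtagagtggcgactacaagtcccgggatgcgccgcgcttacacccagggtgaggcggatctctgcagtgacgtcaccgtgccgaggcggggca

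Kif11 and Kif22 also hold ATTGG, which begins 45 and 54 bases before the RefSeq start, upstream of TTCAAA. Neither motif stands in the printed stretch of Kif5c. A match describes these letters and is no evidence of a bound factor. The 3 mitotic motors with TTCAAA near the RefSeq start had the levels given above. In replicates 1 and 2 these were 105 TPM and 75.1 TPM for Kif22, and 72.9 TPM and 69.9 TPM for Kif11. For Kif15 they were 45.8 TPM and 31.5 TPM.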

How the data were processed

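Both libraries came from 1 group, so values were described and no test was run. Per the file headers, the authors deposited expected counts, TPM and FPKM per gene and transcript on mm10 with annotation release M4. The authors also deposited mm9 Ensembl 65 RPKM values and a count of reads per splice junction with both replicates together, whose component values no label ties to a sample. Repeated lines of the mm9 gene table were dropped. Neither the aligner nor the quantifier is given in the sources used here. Symbols came from GENCODE M21, which matched 42462 of 43346 Ensembl genes. Rows that are not Ensembl genes were left out, which kept 95.33% of the expected counts in replicate 1 and 96.7% in replicate 2. Other mm9 tables were not used here.

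Expected counts were rounded and scaled by TMM in edgeR 4.0.16 (R 4.3.3). The log2 ratio used a prior count of 0.5. The calculation was tested on simulated counts in which only planted folds set the libraries apart beyond counting error. That checks the calculation and cannot show how the ratios behave in libraries that differ as these do. Intervals are 95% exact binomial and cover counting error only, since reads are not independent molecules. Alternatives included DESeq2 1.42.0 size factors. Every member found by the rule is described by role, and the partner lists by their 3 highest and lowest genes. Members and lists were chosen with earlier results of these data known.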

Additional observations from a re-analysis of the deposited data

How the results depend on the processing

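The 2 members at least 2-fold higher in replicate 1 and the 0 higher in replicate 2 were the same with DESeq2 size factors, a prior count of 5 or no count minimum. Scaling by total expected counts moved the median over all protein-coding genes tested to -0.11 on the log2 scale. It gave 1 member higher in replicate 1 (Kif21a) and 1 higher in replicate 2 (Kif26b), with medians of 0.28 for the mitotic and 0.36 for the transport motors. On log2(TPM + 1), the median over those genes was also -0.11, the medians were 0.19 and 0.37, and the 2 calls were Kif21a and Kif5c. Kif21a was called under each of these alternatives. The sign of 4 members' ratios changed under total counts and of 6 under TPM, Kif2a among them. Of the 36 members, 30 under total counts and 28 under TPM moved farther than their counting interval allows. Rescaling TPM over nuclear protein-coding genes gave median levels of 42.1 (mitotic) and 35.0 (transport), and FPKM gave 23.4 and 19.5. With either replicate alone, 33 members reached 1 TPM, and the median levels ranged over 31.5 to 38.6 TPM (mitotic) and 26.0 to 32.2 TPM (transport). Over coding transcripts of at least 1000 bases, an alternative added after seeing the data, they were 31.2 and 27.7 TPM, and the sum of Kif5a, Kif5b and Kif5c was 136 TPM in replicate 1, against 235 TPM by gene. No paired analysis was possible because there is 1 group.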

Other observations

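The mm9 RPKM values ranked the 38 members much as the mm10 TPM did (Spearman rho 0.993, a description over genes that share the libraries), and 25 members reached an RPKM of 1 in both values. Inside the mm9 span of Kif27, 107 junction reads lay on the opposite strand, against 577 on the strand of Kif27.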
